A study of Mus musculus with 35 samples.

Results

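The mouse kinesin motor genes were examined in regenerating liver. They were taken as every gene whose symbol in the array's platform table is Kif or Kifc followed by a digit, which gave 41 genes of the 18193 measured. They were sorted by known function into 13 mitotic kinesins, 15 transport kinesins and 13 kinesins with other or less settled roles. This sorting was made with earlier results of these data known. It put Kif2c in the mitotic class, and Kif2a and Kif2b in the class with other roles. Liver RNA of male CB6F1 hybrid mice was hybridised to 35 Affymetrix whole-genome arrays, 1 sample per array. Young mice were 5 to 6 months old and came from Jackson Laboratories, and old mice were 25 to 27 months old and came from the National Institute on Aging, so age and supplier cannot be told apart. Untreated livers (0 h) were compared with livers taken 24, 38 or 48 h after 70% partial hepatectomy (PH, removal of the larger lobes) or after sham surgery, in which the liver was handled but not cut; the operations were done under avertin and isoflurane. Each 0 h and PH group held 3 arrays. Each sham group held 2, except young sham at 38 h, which held 1. Nothing in the labels says that samples of a group came from separate animals, and the p-values reflect only how far these samples vary, which may be technical. Signals are on the log2 scale, on which 1 unit is a doubling. A gene rose or fell where limma's moderated test gave a Benjamini-Hochberg adjusted p under 0.05 over all 18193 genes. Values after ± are standard errors (SE). They rest on 1 spread per gene shared by all groups, so they do not show the scatter of the groups compared.

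Kinesins are motor proteins that step along microtubules by hydrolysing ATP. Mitotic kinesins slide, shorten or crosslink spindle microtubules, move chromosomes and organise cytokinesis, and many of their genes are switched on as cells pass through G2 and mitosis. Transport kinesins carry vesicles, mitochondria and other cargo in cells that are not dividing, hepatocytes included. Hepatocytes of an adult liver are mostly quiescent and enter the cell cycle after hepatectomy.

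Promoter sequence is shown first, because genes of the G2 and mitosis programme are known to carry 2 short elements near their start: the cell cycle homology region, with the letters TTTGAA, and the CCAAT box. Of the 41 kinesins, 33 had a promoter in the RefSeq table for build GRCm38.p6, which holds 250 bases before to 50 bases after the start. Searched on both strands of these 300 bases, TTTGAA was found in 11 of 12 mitotic kinesins, 1 of 10 transport kinesins and 2 of 11 of the others, against 20.2% of the 27025 genes in the table. From 60 bases before to 30 after the start it was found in 8 of 12, 1 of 10 and 1 of 11, against 5.36% of all genes; this narrower window was set after the positions were seen. CCAAT was found over the 300 bases in 8 of 12, 3 of 10 and 5 of 11, against 41.1% of all genes, and in the narrower window in 7 of 12, 1 of 10 and 1 of 11, against 16%. Kif18a was the mitotic member without TTTGAA, and it held no CCAAT either. It rose against sham at 48 h at both ages, while Kif14 and Kif15, which hold TTTGAA, did not. Kif20a, the mitotic member that moved furthest, had no promoter in the table. A base can belong to both motifs where they adjoin. A match describes the sequence and is not a measured binding site.

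The 90 bases of the narrower window are given for the 8 mitotic kinesins with TTTGAA in it, followed by 4 transport kinesins that fell in some comparisons: Kif1a and Kif3a, the transport members that hold TTTGAA and CCAAT in this window, and Kif13a and Kif3c, which hold neither. Capitals mark TTTGAA or its complement TTCAAA, and CCAAT or its complement ATTGG.
Kif11: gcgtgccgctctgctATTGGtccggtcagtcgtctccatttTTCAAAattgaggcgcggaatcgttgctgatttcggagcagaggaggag
Kif15: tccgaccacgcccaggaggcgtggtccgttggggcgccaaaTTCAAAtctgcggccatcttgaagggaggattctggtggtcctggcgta
Kif18b: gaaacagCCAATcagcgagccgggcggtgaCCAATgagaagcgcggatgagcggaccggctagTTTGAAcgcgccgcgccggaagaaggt
Kif20b: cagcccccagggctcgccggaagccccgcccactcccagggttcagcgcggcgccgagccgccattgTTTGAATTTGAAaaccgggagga
Kif22: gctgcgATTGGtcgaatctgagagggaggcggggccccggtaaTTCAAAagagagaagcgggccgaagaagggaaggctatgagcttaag
Kif23: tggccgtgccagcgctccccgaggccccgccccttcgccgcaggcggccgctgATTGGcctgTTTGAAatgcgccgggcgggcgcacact
Kif4: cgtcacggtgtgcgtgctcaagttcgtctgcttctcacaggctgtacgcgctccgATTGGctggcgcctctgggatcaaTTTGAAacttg
Kifc1: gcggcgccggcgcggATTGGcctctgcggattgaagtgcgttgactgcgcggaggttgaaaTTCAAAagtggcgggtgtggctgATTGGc
Kif1a: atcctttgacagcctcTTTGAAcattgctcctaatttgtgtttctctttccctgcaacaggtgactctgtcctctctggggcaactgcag
Kif3a: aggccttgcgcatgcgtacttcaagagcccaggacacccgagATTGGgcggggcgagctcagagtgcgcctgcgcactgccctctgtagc
Kif13a: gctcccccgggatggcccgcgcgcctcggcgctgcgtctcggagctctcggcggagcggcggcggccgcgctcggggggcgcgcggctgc
Kif3c: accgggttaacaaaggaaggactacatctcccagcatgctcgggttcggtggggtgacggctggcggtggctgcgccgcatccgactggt
Windows on the plus strand are Kif11 at chr19:37376322-37376411, Kif15 at chr9:122951021-122951110, Kif20b at chr19:34922298-34922387, Kif4 at chrX:100626005-100626094, Kif3a at chr11:53567309-53567398 and Kif3c at chr12:3365072-3365161. Those on the minus strand are Kif18b at chr11:102925095-102925184, Kif22 at chr7:127042391-127042480, Kif23 at chr9:61946770-61946859, Kifc1 at chr17:33890604-33890693, Kif1a at chr1:93082451-93082540 and Kif13a at chr13:46929689-46929778. The first letter of the element lay 19 bases before the start in Kif11 and Kif15 and 17 before it in Kif22. In Kif20b 2 copies followed each other directly. The promoters of Kifc1 and Kifc5b shared an unbroken run of 68 bases. The table gives 2 starts for Kif1a, and the window of the other start held neither motif.

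The mitotic kinesins rose after hepatectomy, late and nearly as a block. Against sham, 0 of 13 rose at 24 h, 5 at 38 h and 11 at 48 h in young livers. The numbers in old livers were 0, 2 and 10, and none fell in any of the 6 comparisons. Kif2a and Kif2b, counted with the other roles, were not called against sham at 48 h. The young count at 38 h rests on a single sham array; it was 10 with the shams of an age pooled and 0 when the compared arrays alone were fitted. No mitotic member had an unadjusted p under 0.05 at 24 h at either age. Over all genes, limma called 0.588% higher at 24 h, 4.60% at 38 h and 11.1% at 48 h in young livers, and 7.51%, 2.30% and 8.46% in old ones. The median log2 difference of the mitotic members from sham was 0.16, 0.79 and 1.19 in young livers and -0.12, 0.40 and 1.29 in old ones, while that of all genes stayed between -0.07 and 0.04. In these whole-liver samples, more cells in mitosis and more RNA per cell cannot be told apart. Age for age, the plot of class differences shows the mitotic members leaving 0 and the transport members staying near it.

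**Figure D1:**
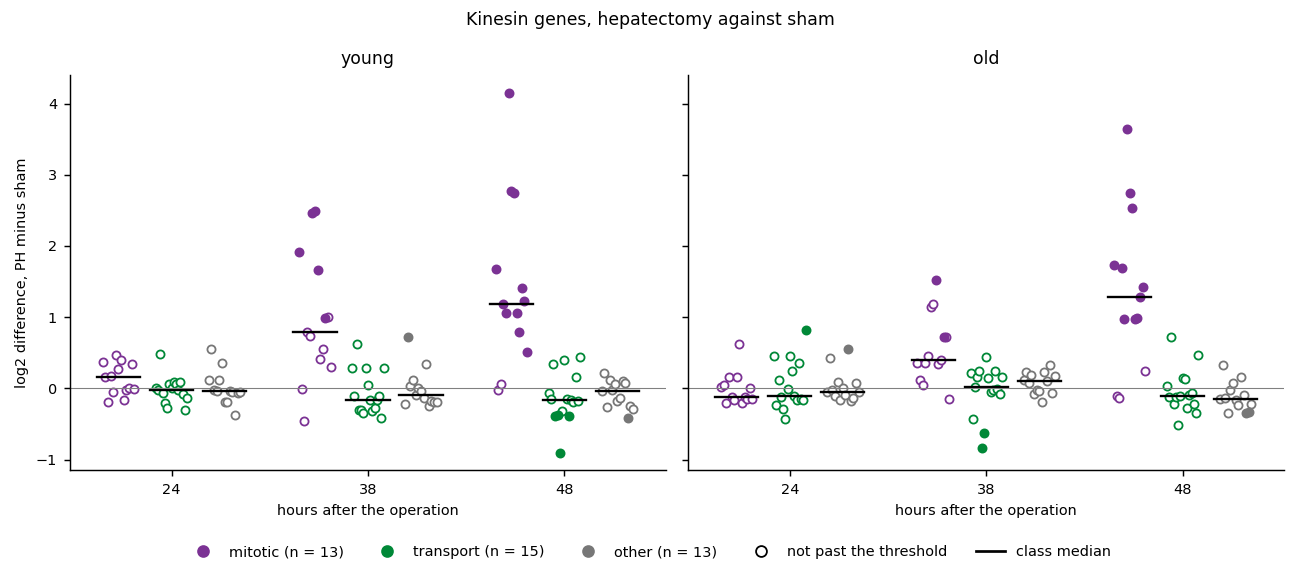
Log2 difference of PH from sham for each kinesin gene at 24, 38 and 48 h, young livers on the left and old on the right; filled points passed an adjusted p of 0.05, open points did not, and black bars are class medians. Mitotic kinesins climb to medians of 1.19 (young) and 1.29 (old) at 48 h, with Kif20a highest at 4.15 and 3.64, while the transport medians at 48 h are -0.17 and -0.11.

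Among the motors of the central spindle and cleavage furrow, Kif20a (MKLP2, which carries the chromosome passenger complex to the midzone) moved furthest. On young arrays Kif20a read 5.35, 5.19 and 5.32 at 0 h, 5.43 on the sham array at 38 h, 5.46 and 5.09 in sham at 48 h, 5.72, 5.59 and 5.76 in PH at 24 h, 7.17, 7.66 and 8.87 at 38 h, and 9.59, 9.08 and 9.62 at 48 h. All PH arrays from 38 h on lay above every control array. Old arrays read 5.27, 5.35 and 5.13 at 0 h, 5.26 and 5.41 in sham at 48 h, 4.94, 4.97 and 5.46 in PH at 24 h, 7.84, 6.31 and 5.14 at 38 h, and 9.31, 9.19 and 8.44 at 48 h. At 38 h the old PH arrays were spread from control level to the young level. Against sham, Kif20a was 17.8-fold higher in young livers at 48 h (log2 4.15 ± 0.46 SE, limma adjusted p = 1.11e-06) and 12.5-fold higher in old ones (3.64 ± 0.46, adjusted p = 9.79e-06). At 38 h it rose in young livers (2.47 ± 0.59, adjusted p = 0.0111), and the old value was 1.15 ± 0.46 (adjusted p = 0.151). The shared SE understates the scatter of old PH at 38 h, where the SD of Kif20a over the arrays was 1.36.

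Kif20b (MPHOSPH1, a slow plus-end motor of the midzone) read 4.85, 4.80 and 4.85 in young livers at 0 h, 4.92 and 4.64 in sham at 48 h, 6.87, 6.78 and 8.17 in PH at 38 h and 7.69, 7.14 and 7.83 at 48 h. Old PH arrays read 6.99, 5.30 and 5.05 at 38 h and 7.84, 7.58 and 7.26 at 48 h, against 4.71 and 4.92 in sham at 48 h. The 48 h PH and sham arrays did not overlap at either age. The rises at 48 h were 2.77 ± 0.39 in young and 2.75 ± 0.39 in old livers (limma adjusted p = 2.16e-05 and 3.79e-05). Kif23 (MKLP1, the motor of the centralspindlin complex) also differed between untreated and sham livers. It read 7.33, 7.24 and 7.37 at 0 h, 8.23 and 7.89 in sham at 48 h, and 9.19, 8.65 and 9.53 in PH at 48 h in young livers. Sham arrays thus lay above untreated ones and below PH arrays. Old livers read 7.54, 7.81 and 7.36 at 0 h, 7.98 and 7.91 in sham at 48 h and 9.18, 8.89 and 8.70 in PH at 48 h. Kif23 was higher than sham by 1.06 ± 0.20 in young and 0.98 ± 0.20 in old livers (adjusted p = 0.00065 and 0.00215), and young sham livers stood 0.80 ± 0.17 above 0 h (adjusted p = 0.000774). Kif14, a motor of the midbody, had a single probe set and was among the dimmest of all genes, at percentile 0.852 of mean level. Its 35 values lay between 4.08 and 4.73 and no comparison was called.

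Of the motors that push the spindle poles apart, Kif11 (Eg5) rose and Kif15 (its partner in keeping the spindle bipolar) did not rise against sham. Kif11 read 6.75, 6.78 and 6.87 in young livers at 0 h, 6.97 and 6.93 in sham at 48 h, 7.23, 7.24 and 7.08 in PH at 24 h, 8.36, 7.95 and 9.05 at 38 h, and 8.64, 8.28 and 8.95 at 48 h. Old PH arrays read 6.61, 6.80 and 6.81 at 24 h, 8.04, 7.36 and 6.49 at 38 h and 8.51, 8.88 and 8.44 at 48 h, against 6.85 and 6.91 in sham at 48 h. Young arrays were up at 38 h, and all old arrays were up at 48 h. The differences from sham at 48 h were 1.68 ± 0.29 and 1.73 ± 0.29 (limma adjusted p = 0.000195 and 0.000219). Kif15 read 7.60, 7.83 and 7.78 at 0 h, 8.66 on the young sham array at 38 h, 8.10 and 8.05 in sham at 48 h and 8.02, 7.97 and 8.41 in PH at 48 h. It was higher than 0 h in sham livers of both ages (0.56 ± 0.09 young, 0.44 ± 0.09 old, adjusted p = 8.48e-05 and 0.000748), and at 48 h its young PH and sham arrays overlapped, while all 3 old PH arrays lay below both sham arrays, at 8.17 and 8.03, with no call. TTTGAA stood at the same distance from the start in the promoters of Kif11 and Kif15.

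The chromokinesins, which bind chromosome arms and push them toward the spindle equator, were Kif4 and Kif22 (Kid). Kif22 read 7.95, 8.16 and 8.10 at 0 h, 8.44 and 7.99 in sham at 48 h, 8.90, 8.77 and 8.64 in PH at 24 h, 10.11, 10.07 and 10.79 at 38 h and 11.11, 10.70 and 11.08 at 48 h in young livers. In old livers it read 8.45 and 8.25 in sham at 48 h, 10.32, 8.80 and 8.70 in PH at 24 h, 10.38, 9.07 and 10.19 at 38 h and 10.84, 11.03 and 10.76 at 48 h. Old array 1 of 24 h was high already; it is one of the 2 old PH arrays that correlated least with their groups (median r 0.965), and on it Kif11 and Kif20a stood at 6.61 and 4.94, the level of control arrays. Kif22 rose by 2.75 ± 0.35 at 48 h in young and 2.53 ± 0.35 in old livers (limma adjusted p = 5.68e-06 and 2.64e-05). Kif4 read 6.63, 6.67 and 6.51 at 0 h, 7.33 and 7.11 in sham at 48 h and 8.92, 8.31 and 8.64 in PH at 48 h in young livers. Its old arrays read 6.49, 6.63 and 6.82 at 0 h, 7.23 and 7.25 in sham at 48 h and 8.64, 8.47 and 8.48 in PH at 48 h. Sham arrays of Kif4 lay between untreated and PH arrays at both ages. The rises of Kif4 from sham were 1.41 ± 0.21 in young and 1.29 ± 0.21 in old livers (adjusted p = 4.68e-05 and 0.000196). At 38 h these 2 genes were the mitotic members called in old livers, at 1.52 ± 0.35 for Kif22 and 0.72 ± 0.21 for Kif4 (adjusted p = 0.0141 and 0.0492). Both calls were lost without either of the old sham arrays at 38 h, and that of Kif4 also without PH array 1 or 2. In young livers at 38 h the calls of Kif22 and Kif4 were lost without PH array 3, at 1.42 and 0.80 (adjusted p = 0.0673 and 0.0775).

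Kif2c (MCAK), Kif18a and Kif18b shorten or cap microtubule ends at the kinetochore and in the spindle. Kif18a read 5.48 and 5.45 in young sham and 6.68, 6.33 and 6.95 in young PH at 48 h, and 5.47 and 5.37 in old sham against 6.92, 7.26 and 7.16 in old PH. Kif18b read 8.33 and 8.11 in young sham against 9.15, 9.13 and 9.56 in PH at 48 h, and 8.31 and 8.22 against 9.14, 9.36 and 9.20 in old livers. Kif2c read 8.32 and 8.41 in young sham and 9.41, 8.78 and 9.29 in PH at 48 h, and 8.38 and 8.34 against 9.46, 9.60 and 8.97 in old livers. For these 3 genes all PH arrays at 48 h lay above the sham arrays of their age. The share of all genes that did so was not counted. In young livers Kif18a rose by 1.19 ± 0.22, Kif18b by 1.06 ± 0.19 and Kif2c by 0.80 ± 0.20 (limma adjusted p = 0.000378, 0.000333 and 0.00577). In old livers Kif18a rose by 1.69 ± 0.22, Kif18b by 0.97 ± 0.19 and Kif2c by 0.99 ± 0.20 (limma adjusted p = 1.04e-05, 0.0012 and 0.00139). The young Kif2c call was lost without sham array 1 of 48 h.

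Kifc1 (HSET), a minus-end motor that bundles spindle microtubules, read 6.73 and 6.59 in young sham and 7.91, 7.68 and 8.10 in young PH at 48 h. Old livers read 6.70 and 6.59 in sham and 8.72, 8.21 and 7.28 in PH. It rose by 1.23 ± 0.32 and 1.43 ± 0.32 (limma adjusted p = 0.00881 and 0.00414). Kifc5b is a close copy of Kifc1, so the probe sets of the pair may read each other's RNA and their values are uncertain. Kifc5b was dim, reading 4.66 and 4.72 in young sham and 5.01, 5.05 and 5.57 in young PH at 48 h. It rose in young livers (0.52 ± 0.16, adjusted p = 0.0222) and the old value was 0.24 ± 0.16. The young calls of Kifc1 and Kifc5b were lost without either sham array of 48 h, that of Kifc5b also without PH array 3, and the old call of Kifc1 without sham array 2.

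**Figure D2:**
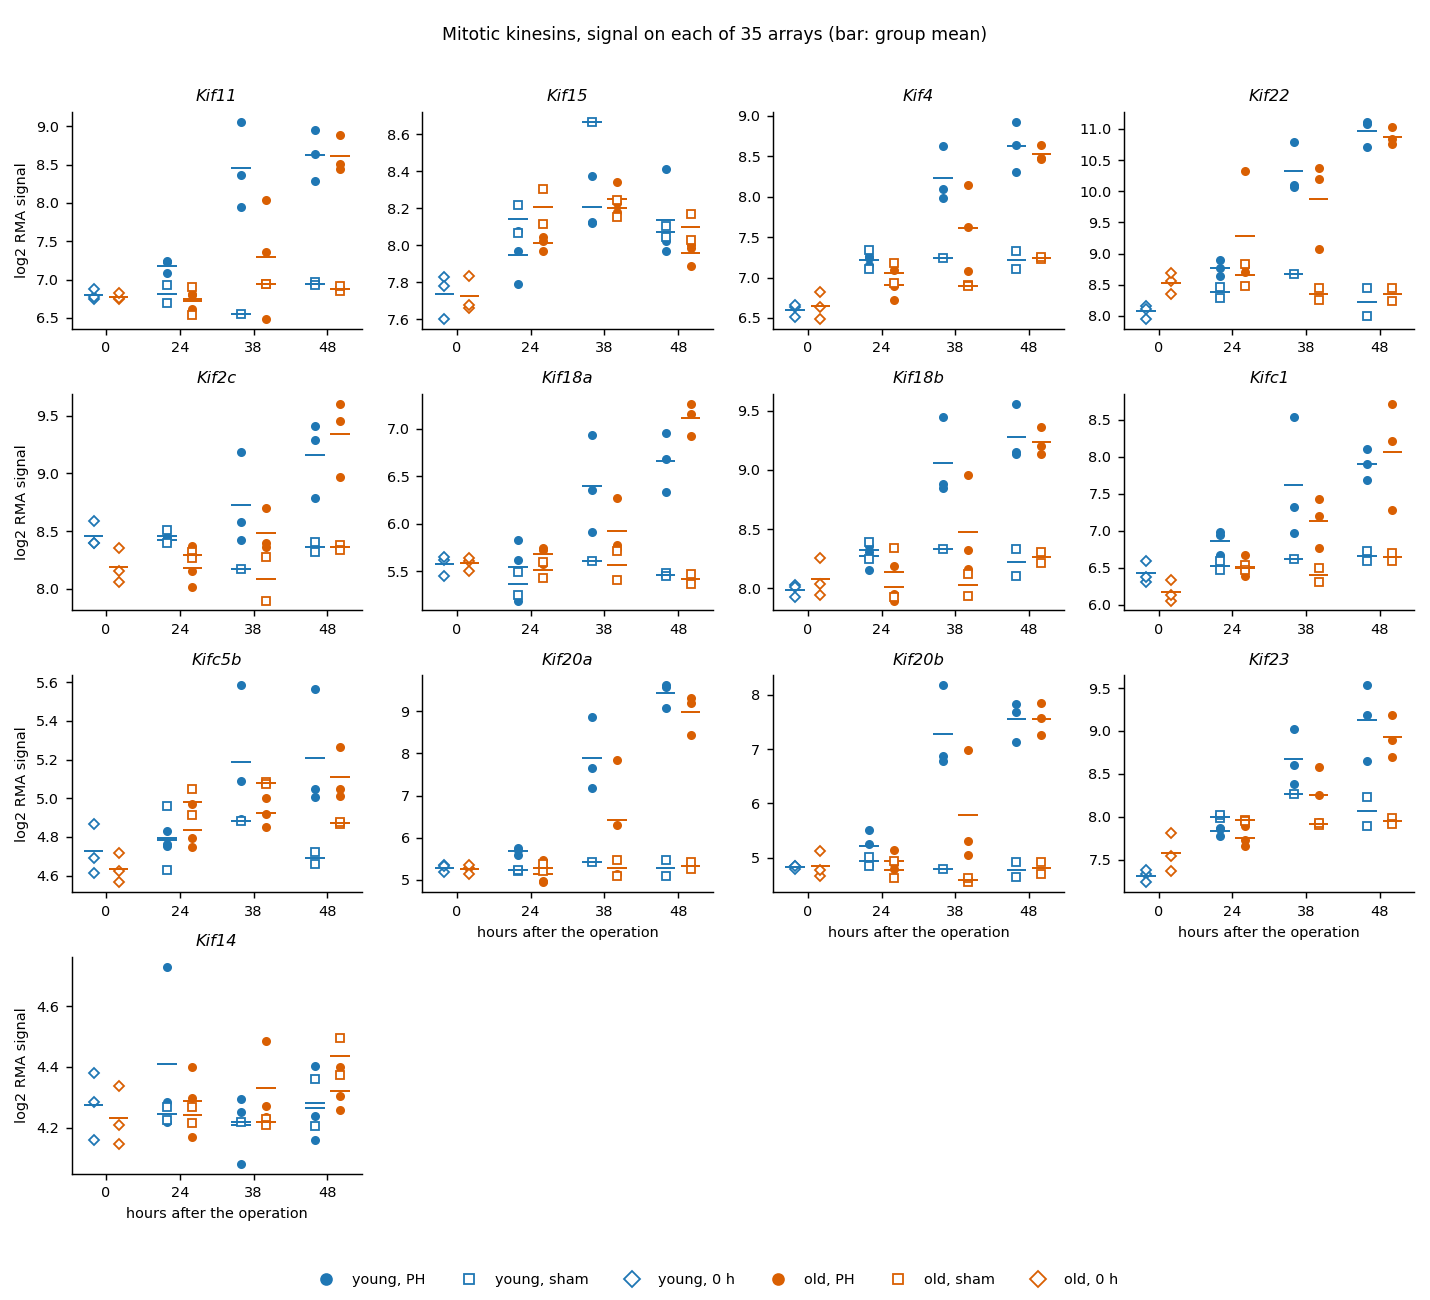
Log2 signal of the 13 mitotic kinesins on each array by hours after the operation (times at equal spacing), blue for young and orange for old; filled circles are PH, squares sham, diamonds 0 h, and bars group means. Kif20a goes from 5.19 to 5.35 in young livers at 0 h to 9.08 to 9.62 at 48 h of PH, and Kif14 stays between 4.08 and 4.73 on all arrays.

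Between times, more mitotic kinesins passed the threshold at the earlier step in young livers and at the later step in old ones; the difference between these steps was not tested. From 24 to 38 h of PH, 8 of the 13 rose in young livers (Kif11, Kif18a, Kif18b, Kif20a, Kif20b, Kif22, Kif23 and Kif4) and 1 in old ones (Kif4). At an unadjusted p under 0.05 the counts were 11 and 8, and the medians of the 13 members were 0.84 and 0.50. From 38 to 48 h, 0 rose in young livers by limma and 10 in old ones, with 4 and 11 at an unadjusted p under 0.05 and medians of 0.28 and 0.91. All 10 old calls were lost when the compared arrays alone were fitted. Those of Kif22, Kifc1 and Kif23 were lost in 9, 8 and 6 of 17 alternatives. For the first step, the old call of Kif4 was lost in 7 of 17. The young calls of Kif18a, Kif18b and Kif23 were lost in 3 of 16, 2 of 17 and 2 of 17. Over all genes, the calls higher were 2.01% and 0.857% for the first step in young and old livers, and 1.04% and 4.69% for the second; calls lower were 0.835% and 1.32%, then 0.220% and 3.50%. For the mean of the 13 members relative to untreated livers of the same age, the 3 young PH arrays at 38 h lay between 0.98 and 1.73. The 3 old arrays lay between 0.33 and 1.13. At 48 h the ranges were 1.33 to 1.83 and 1.36 to 1.68, which overlap, and sham arrays stayed at or below 0.26. In both ages 11 of the 13 members had their highest PH mean at 48 h. The share of all genes that did so was not computed.

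Compared directly at 38 h of PH, Kif11 was lower in old livers by 1.16 ± 0.26 and Kif20b by 1.50 ± 0.35 on the log2 scale (limma adjusted p = 0.0183 and 0.0247). Among all genes 2.01% differed in either direction. These calls were lost without the old PH array 3 of 38 h, at -0.76 for Kif11 (adjusted p = 0.131) and -1.13 for Kif20b (adjusted p = 0.169), and also without the young PH array 3 of 38 h, and for Kif20b without old PH array 2. That old array correlated least with its group (median r 0.946), and on it Kif11, Kif20a and Kif20b stood at 6.49, 5.14 and 5.05, near sham, while Kif22 stood at 10.19. What sets this array apart was not tested. At 24 h 1 kinesin differed between old and young PH, the transport motor Kifc3 (background 7.39%), and at 48 h none did (0.0824%). None differed at 0 h (0.236%) or in sham livers (0.0495%). The test of the age difference in the response to PH itself called 0 of 41 at 24, 38 and 48 h, with 3, 8 and 2 at an unadjusted p under 0.05 (background 0%, 0.0879% and 0%). For Kif11 at 38 h that difference was -1.56 ± 0.46 (adjusted p = 0.143).

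Of the transport kinesins, 5 fell and 1 rose in at least 1 comparison of PH with sham. The share of all genes called in at least 1 of these comparisons was not counted, and the shares below are for single comparisons. Against sham in young livers, 0 of 15 were called by limma at 24 and 38 h (0 and 3 at an unadjusted p under 0.05) and 4 fell at 48 h: Kif1b, Kif17, Kif3c and Kif1a. Over all genes, 0.121%, 1.47% and 7.30% were called lower at 24, 38 and 48 h. In old livers Kifc3 rose at 24 h, Kif1b and Kif1c fell at 38 h, and 0 were called at 48 h (5 at an unadjusted p under 0.05), where 3.80%, 2.49% and 6.56% of all genes were called lower. At 24 h in old livers 7.51% of all genes were called higher, so 1 rise among 15 members was near the share of all genes. The class medians at 48 h were -0.17 and -0.11, beside -0.05 and -0.07 for all genes.

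Kif1b, a carrier of mitochondria and synaptic vesicle precursors, showed the deepest fall. On young arrays it read 12.02, 11.69 and 11.88 at 0 h, 11.48 and 11.25 in sham at 48 h, and 10.51, 10.82 and 10.05 in PH at 48 h. Old arrays read 11.93, 11.89 and 11.76 at 0 h, 11.40 and 11.78 in sham at 38 h, 10.77, 10.97 and 10.52 in PH at 38 h, and 11.17, 10.81 and 10.82 at 48 h. PH arrays lay below sham at 48 h in young and at 38 h in old livers with no overlap. Against sham the young 48 h difference was -0.90 ± 0.20 and the old 38 h difference -0.84 ± 0.20 (limma adjusted p = 0.00293 and 0.0197). Kif1b also fell against 0 h in all 6 PH groups, by 0.72 to 1.40 on the log2 scale, and in young sham livers (-0.66 ± 0.17, adjusted p = 0.00384). The young 48 h call was lost without sham array 1, and the old 38 h call without sham array 2 or PH array 3. Other probe sets of Kif1b went both ways, as described with the probe sets.

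The heterotrimeric kinesin-2 subunit Kif3c read 10.03 and 9.86 in young sham and 9.55, 9.75 and 9.39 in PH at 48 h. Kif17, the homodimeric kinesin-2 motor, read 9.76 and 9.64 against 9.32, 9.30 and 9.33. Kif1a, a carrier of synaptic vesicle precursors, read 7.79 and 7.70 against 7.27, 7.30 and 7.56. The differences of these 3 genes from sham were small, at -0.38 ± 0.12, -0.38 ± 0.10 and -0.37 ± 0.13 (limma adjusted p = 0.0224, 0.00901 and 0.0406). All 3 calls were lost without sham array 1 of 48 h, and that of Kif1a also without sham array 2. Kif17 and Kif1a had risen in young sham livers against 0 h, by 0.28 ± 0.08 and 0.35 ± 0.10 (adjusted p = 0.0102 and 0.0114), and their young PH means at 48 h, 9.32 and 7.38, lay near the 0 h means of 9.36 and 7.34. In old livers Kif1a rose in PH at 38 h against 0 h (0.31 ± 0.11, adjusted p = 0.0336), a call lost without any 1 of the PH arrays of 38 h. Kif1c, a motor of vesicles and messenger RNA, read 10.26 and 10.40 in old sham and 9.92, 9.94 and 9.24 in old PH at 38 h (-0.63 ± 0.18, adjusted p = 0.0427), a call lost without PH array 3 or either sham array.

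Kifc3, a minus-end motor of epithelial transport, was the transport member that rose against sham. It read 9.28 and 9.16 in old sham and 9.91, 10.45 and 9.74 in old PH at 24 h, and 9.46 and 9.32 in young sham against 9.28, 9.22 and 9.28 in young PH. Old PH arrays were above their sham and young PH arrays below theirs. The old rise was 0.81 ± 0.23 (limma adjusted p = 0.0254), old exceeded young PH by 0.77 ± 0.21 (adjusted p = 0.0272), and the difference between the responses was 0.95 ± 0.33 (adjusted p = 0.464). The old rise was lost without PH array 2 of 24 h, at 0.61 (adjusted p = 0.108), and without either sham array. Against 0 h Kifc3 rose in young livers at 38 h and 48 h, by 0.55 and 0.65, and in old livers at 24 h, by 0.90.

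**Figure D3:**
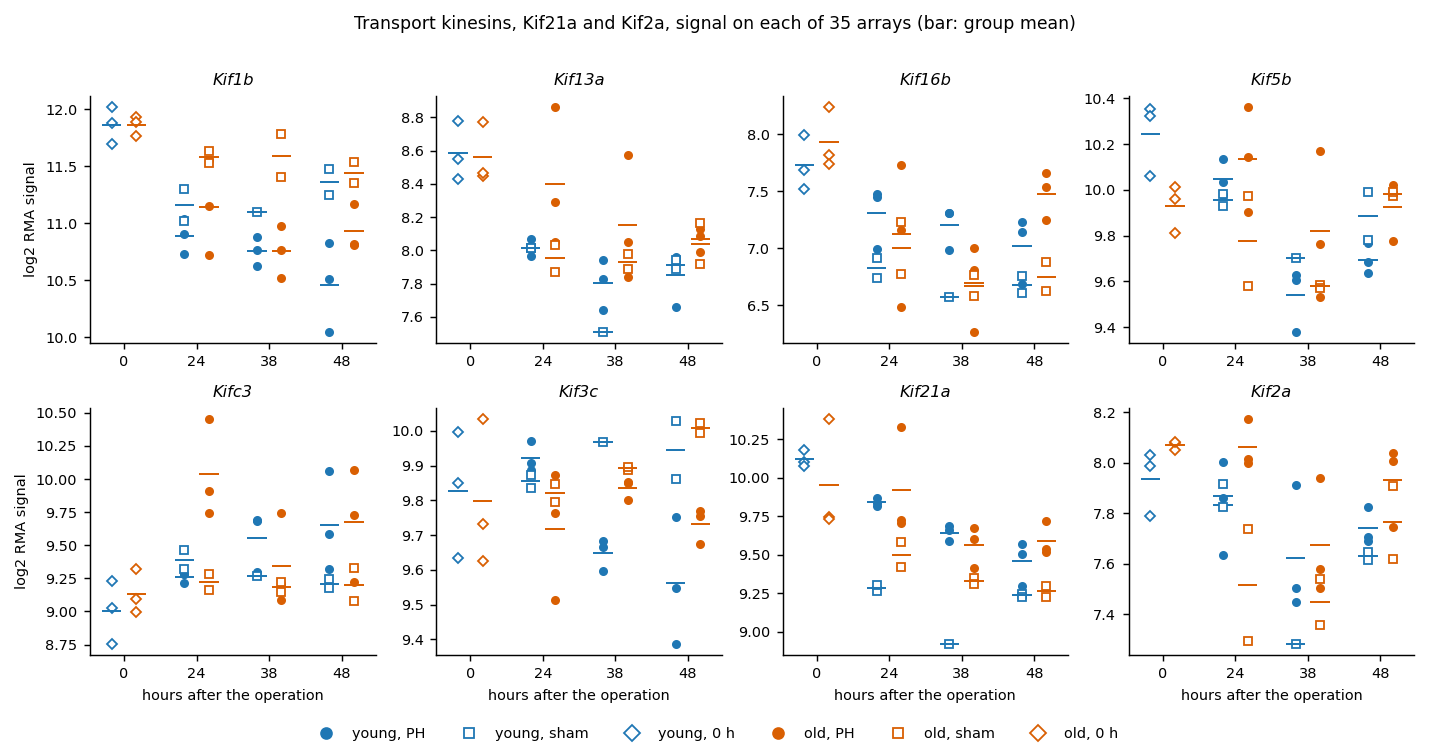
Log2 signal on each array for 6 transport kinesins, Kif21a and Kif2a, with colours and symbols for age and operation as in the plot of the mitotic kinesins. Kif1b lies at 11.69 to 12.02 in young livers at 0 h and at 10.05 to 10.82 at 48 h of PH, and Kif13a, Kif16b and Kif21a are lower in sham livers than at 0 h.

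The sham operation itself was compared with 0 h. Comparing the sham livers of an age with 0 h, 8 of 41 kinesins rose and 7 fell in young livers, and 8 rose and 5 fell in old ones. All genes gave 16.5% higher and 17.1% lower in young and 15.7% higher and 12.6% lower in old livers, so the share of kinesins called was near that of all genes. Of the 15 transport members, 3 rose (Kif17, Kif1a and Kifc2) and 5 fell in young sham livers, and 2 rose and 3 fell in old ones. Kif13a and Kif16b, which carry endosomes and other membranes, Kif3a of heterotrimeric kinesin-2, Kif21a and Kif2a fell at both ages. Kif16b read 7.69, 7.52 and 7.99 at 0 h and 6.76 and 6.61 in sham at 48 h in young livers, and 8.24, 7.82 and 7.74 against 6.88 and 6.62 in old ones. Sham arrays of Kif16b lay below untreated arrays in both ages. The mean fall in sham was 1.04 ± 0.22 in young and 1.12 ± 0.21 in old livers on the log2 scale (limma adjusted p = 0.000749 and 0.000361). Kif13a read 8.78, 8.43 and 8.55 at 0 h and 7.94 and 7.89 in sham at 48 h in young livers, a mean difference for sham of -0.77 ± 0.15 (-0.59 ± 0.14 in old livers, adjusted p = 0.000393 and 0.00381). In young livers Kif5b, the ubiquitous conventional kinesin heavy chain, and Kif1b fell too, Kif5b by 0.40 ± 0.12 (adjusted p = 0.014). Against 0 h, transport members that fell in PH numbered 2, 6 and 6 at 24, 38 and 48 h in young and 2, 4 and 2 in old livers. The share of all genes called lower was 9.56%, 16.5% and 14.5%, then 12.6%, 16.6% and 8.62%. These comparisons share the PH arrays with those against sham. For Kif13a the choice of probe set turned the direction: the one with the largest variance gave 0.39, 0.28 and 0.14 above 0 h in young livers at 24, 38 and 48 h.

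The remaining transport members changed against 0 h alone or between times. Kif13b, a motor of membrane cargo, read 9.99, 9.83 and 9.92 in young livers at 0 h, 9.40, 9.44 and 9.66 in PH at 38 h and 9.37, 9.72 and 9.34 at 48 h. It fell by 0.41 ± 0.15 and 0.43 ± 0.15 there, and by 0.49 ± 0.15 in old livers at 38 h (limma adjusted p = 0.0354, 0.0286 and 0.0111). Kif3b, the partner of Kif3a in heterotrimeric kinesin-2, read 8.63, 8.39 and 8.60 at 0 h and 8.17, 8.02 and 8.09 in PH at 38 h in young livers, with no overlap. It fell by 0.44 ± 0.14 at 38 h and 0.41 ± 0.14 at 48 h (adjusted p = 0.0169 and 0.029), a direction that turned with the most variable probe set. Kif3a read 7.77, 7.52 and 7.52 at 38 h and 8.48, 8.05 and 8.16 at 48 h of PH in young livers, a rise between these times of 0.63 ± 0.15 (adjusted p = 0.0397) that was lost without any 1 of the 38 h arrays or 48 h array 1 or 3. The minus-end motor Kifc2 was higher in young sham than at 0 h by 0.46 ± 0.13 (adjusted p = 0.00982). Kif5a and Kif5c, the neuronal conventional kinesin heavy chains, were higher in old sham than at 0 h by 0.22 ± 0.08 and 0.26 ± 0.10 (adjusted p = 0.042 and 0.0465); these calls were lost in 11 of 20 and 8 of 19 alternatives.

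Against the same 0 h livers, mitotic members that rose in PH numbered 1, 11 and 12 in young and 1, 7 and 11 in old livers. Of all genes 7.82%, 15.2% and 13.4% rose in young and 11.7%, 21.9% and 8.28% in old livers. The map of group means shows both sets of differences, with the mitotic members high in the PH columns and Kif16b, Kif13a and Kif21a low in sham and PH columns alike.

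**Figure D4:**
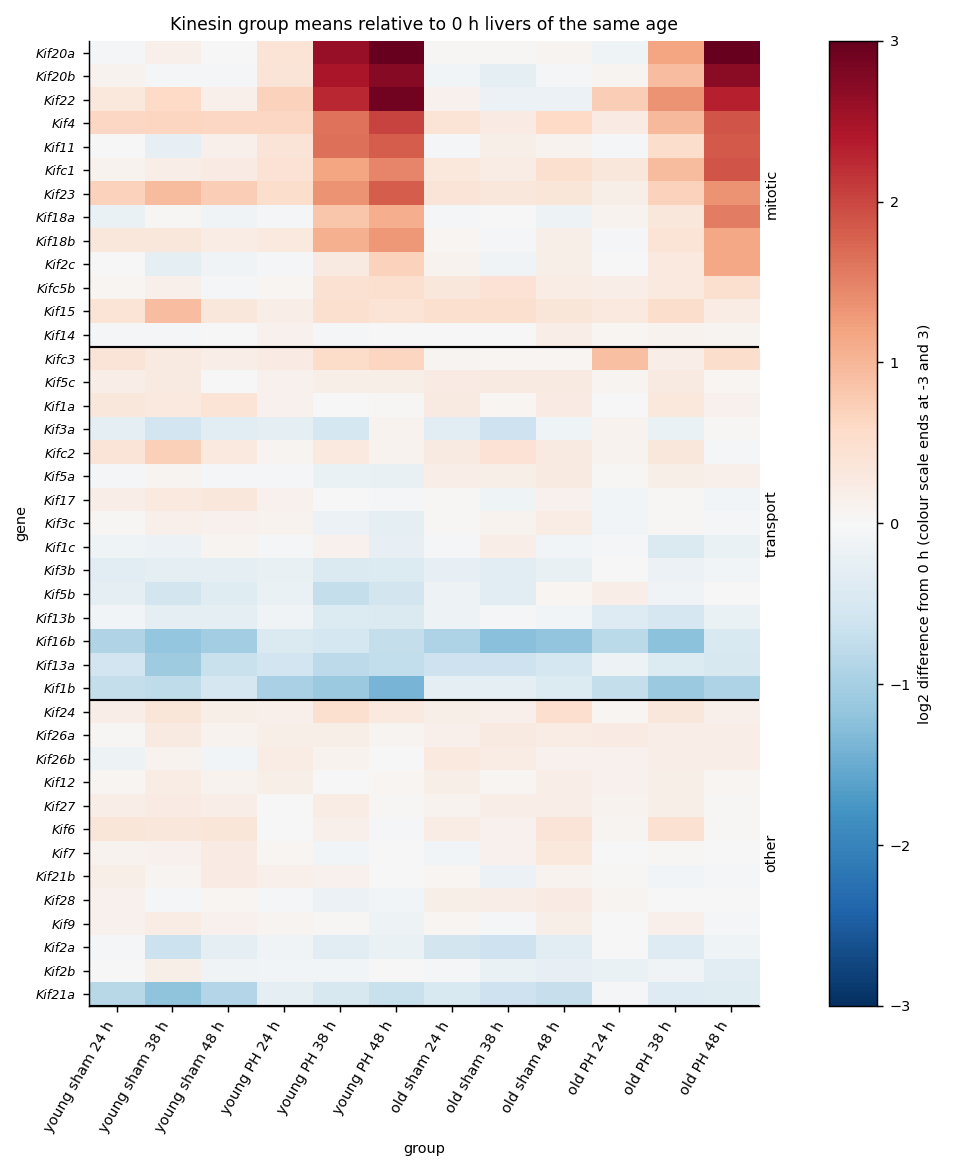
Group mean of each kinesin minus the mean of the 0 h livers of the same age, genes in lines by class and 12 groups in columns; red is higher, blue lower, and colours end at 3 log2 units. Kif20a at 48 h of PH, at 4.14 in young and 3.73 in old livers, lies beyond the scale, and Kif16b is blue in every sham column.

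Among kinesins with other roles, Kif21a, a motor that pauses at microtubule ends, was lower than at 0 h in sham livers of both ages. In PH it was called lower than at 0 h at 38 and 48 h in young livers and at 38 h in old ones. It read 10.10, 10.08 and 10.18 at 0 h, 9.27 and 9.30 in sham at 24 h, 8.92 in sham at 38 h, 9.59, 9.69 and 9.66 in PH at 38 h, and 9.57, 9.50 and 9.30 in PH at 48 h in young livers. PH arrays at 38 h lay above the sham array and below untreated arrays. The difference from sham was 0.72 ± 0.20 (limma adjusted p = 0.0287), and the call was lost with arrays centred on their medians or without PH array 2 or 3. Sham was 0.97 ± 0.13 below 0 h (adjusted p = 6.25e-06). Kif2a, a microtubule depolymerase, read 7.74 and 7.29 in old sham and 7.9998, 8.17 and 8.02 in old PH at 24 h (0.55 ± 0.15, adjusted p = 0.0212, lost without sham or PH array 2), and old livers at 0 h read 8.08, 8.05 and 8.08. Kif6, linked to cilia, fell against sham at 48 h in young (-0.41 ± 0.11, adjusted p = 0.0126) and old livers (-0.35 ± 0.11, adjusted p = 0.0401), and its PH arrays at 48 h read 7.41 to 7.59 beside 7.83 to 7.91 in sham. Kif6 had risen in sham against 0 h at both ages (0.36 ± 0.09 young, 0.25 ± 0.09 old, adjusted p = 0.00459 and 0.0392) and in old PH at 38 h (0.45 ± 0.10, adjusted p = 0.00152). At 48 h of PH it differed from 0 h by -0.04 ± 0.10 in young and 0.04 ± 0.10 in old livers (adjusted p = 0.791 and 0.831). Kif7, the kinesin of the Hedgehog pathway at the cilium tip, fell in old livers (-0.33 ± 0.10, adjusted p = 0.0346). The Kif6 and Kif7 calls were lost without either sham array of their age. Kif24, a depolymerase of centrioles, read 6.56, 6.87 and 6.76 at 0 h and 7.08, 7.18 and 7.40 in PH at 38 h in young livers, with no overlap. It rose against 0 h by 0.49 ± 0.11 in young and 0.33 ± 0.11 in old livers at 38 h (limma adjusted p = 0.00196 and 0.0267). Old sham livers were higher than 0 h as well, by 0.27 ± 0.10 (adjusted p = 0.042), and the old sham mean at 48 h, 7.19, exceeded the old PH mean at 38 h, 7.02. No comparison of PH with sham was called for Kif24. The other changes against 0 h were small. Kif26a rose by 0.18 ± 0.07 in young PH at 38 h and by 0.25 ± 0.07 and 0.20 ± 0.07 in old PH at 24 and 38 h (limma adjusted p = 0.0444, 0.00827 and 0.0221). It rose by 0.22 ± 0.06 in old sham livers too (adjusted p = 0.0073), and was not called between PH and sham. In sham livers Kif26b rose by 0.22 ± 0.08 in old and Kif27 by 0.22 ± 0.08 in young animals (adjusted p = 0.04 and 0.0301). Kif2b, a dim member, fell by 0.33 ± 0.11 in old PH at 48 h (adjusted p = 0.034). The members with no call in any of the 26 comparisons were 5: Kif12, Kif14, Kif21b, Kif28 and Kif9. How many of all genes had no call in any of them was not counted.

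Agreement between probe sets was read at 48 h, since 26 of the 41 genes had more than 1 and 104 probe sets were measured in all. Each gene was represented by the probe set with the highest mean. Tested together with every probe set on the array, 19 of 26 mitotic probe sets rose in young livers and 19 in old ones, and 0 fell. Of 54 transport probe sets, 2 rose and 8 fell in young livers, and 1 rose and 2 fell in old ones. For Kif2c the probe set used gave 0.80 in young livers, while its other 3 probe sets gave 4.86, 1.83 and -0.14. In old livers the same 4 gave 0.99, 5.09, 1.91 and -0.09, so the size of the Kif2c rise depends on the probe set. Kif11 gave 1.68, 2.71 and 0.71, and Kif22 gave 2.75, 2.11 and 3.77 in young livers. Of the Kif1b probe sets, the one used and 2 others fell by 0.90, 0.67 and 1.03 in young livers, and 1 rose by 0.53. With the most variable probe set, Kif1b at 38 h in old livers stood at 0.08 and Kif6 at 48 h in young livers at 0.05, both without the fall seen with the probe set used. For Kif5b 1 probe set rose by 0.81 and the one used stood at -0.19.

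**Figure D5:**
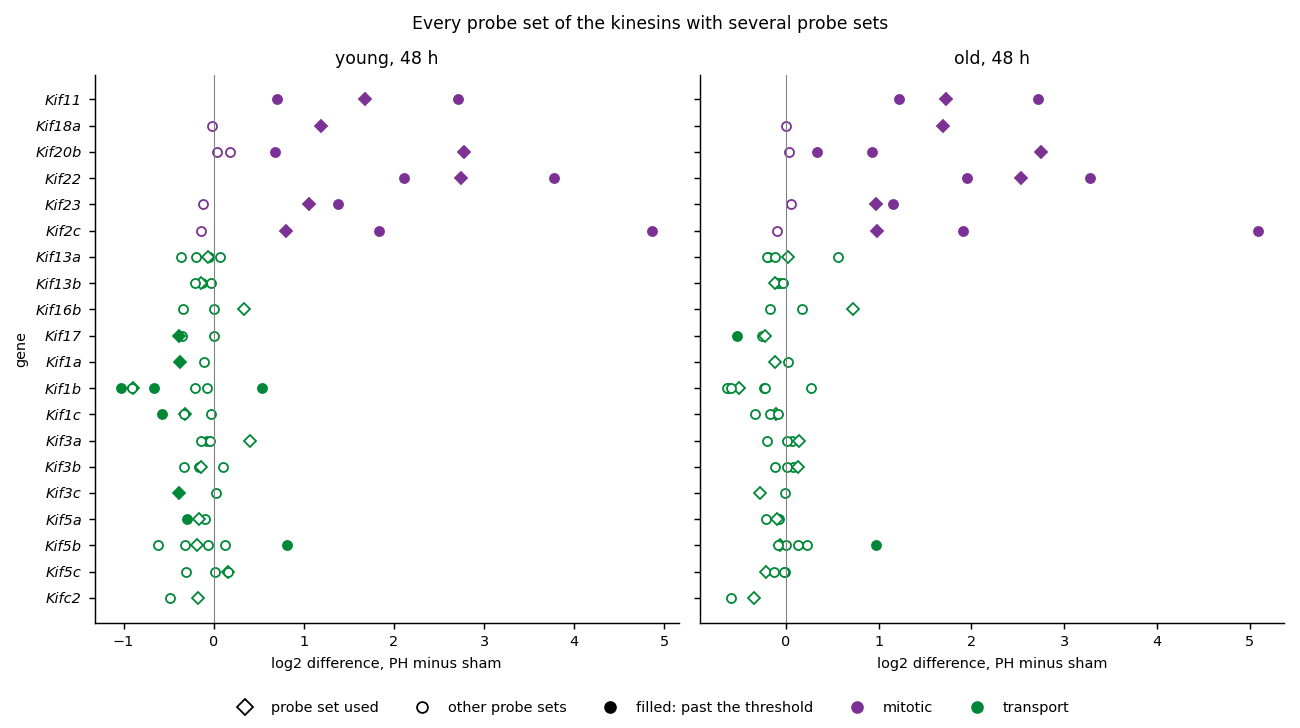
Log2 difference of PH from sham at 48 h for each probe set of the mitotic (purple) and transport (green) kinesins with several probe sets; diamonds mark the probe set used, and filled points passed an adjusted p of 0.05 over all probe sets. The Kif2c probe sets run from -0.14 to 4.86 in young livers, and those of Kif1b from -1.03 to 0.53.

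The 28 spindle and cytokinesis genes that work with these motors gave a like time course. Against sham, 0 rose at 24 h, 23 at 38 h and 26 at 48 h in young livers, and 0, 6 and 26 in old ones, with medians of 2.22 at 38 h and 3.19 at 48 h in young and 1.04 and 3.06 in old livers. As above, 0.588%, 4.60% and 11.1% of all genes were called higher at these times in young and 7.51%, 2.30% and 8.46% in old livers, which is the background for this and the next 3 lists. At 48 h in young livers Birc5 (survivin) rose by 5.35, Ect2 by 4.58 and Cdca8 (borealin) by 4.57. Comparing the ages at 38 h of PH, 19 of the 28 were lower in old livers, among them Nuf2 by 2.82 ± 0.39 (limma adjusted p = 0.000656). Of all genes 2.01% differed between the ages there, in either direction. The mean of the 28 relative to 0 h lay between 0.03 and 1.99 on old PH arrays of 38 h. On young ones it lay between 1.99 and 2.94. The count of 19 was not repeated with single arrays left out. Of 11 tubulin genes, 0, 4 and 7 rose at 24, 38 and 48 h in young livers, and 5, 3 and 6 in old ones; Tubb6 at 48 h was higher by 3.95 in young and 4.05 in old livers. Of 19 genes of dynein and dynactin, the minus-end transport motor and its activator, 0, 1 and 11 rose at 24, 38 and 48 h in young and 4, 0 and 5 in old livers, with Dynll1 at 2.01 and 1.61 at 48 h, and none fell. Where limma called 0, the counts at an unadjusted p under 0.05 were 4 (young) and 1 (old) spindle genes at 24 h, 6 tubulins in young livers at 24 h, and 3 and 4 dynein and dynactin genes in young livers at 24 h and old livers at 38 h. Of 7 kinesin light chains and cargo adaptors, Kifap3 rose at 48 h at both ages (0.64 and 0.73), and Trak2 rose in young livers at 38 h and in old livers at 24 and 48 h. The genes outside the family whose 14 group means ran most like the mean of the mitotic kinesins were Plk1, Prc1, Ttk, Incenp, Ckap2l, Neurl1b, Sgo1, Hmmr, Ube2c and Sgo2a, with Pearson r from 0.991 to 0.998, given as a description.

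As to the samples, 6 of 7 measured hepatocyte markers lay at percentile 99.7 or above of mean level, Ass1 excepted at percentile 12.5, and none of the 7 was called in any comparison with sham. Their mean relative to 0 h lay between -0.31 and 0.05 on PH arrays and between -0.06 and 0.12 on sham arrays. The lowest values were in old PH at 38 h (-0.31) and 24 h (-0.26), the groups whose arrays correlated least with one another. The mean of the 8 Kupffer cell and macrophage markers relative to 0 h lay between -0.15 and 0.57 on young PH arrays and between -1.50 and -0.55 on old ones, while the 3 old 0 h arrays themselves ran from -0.90 to 1.34 and old sham arrays from -0.82 to -0.12. Endothelial markers lay between -0.59 and -0.05 over all PH arrays and between -0.51 and -0.22 over all sham arrays. Lymphocyte markers lay between -0.27 and 0.16 in PH and between -0.10 and 0.58 in sham livers, neutrophil markers between -0.17 and 1.19 and between -0.27 and 0.56, stellate cell markers between -0.49 and 0.95 and between -0.66 and 0.73, and bile duct markers between 0.04 and 0.95 and between 0.19 and 0.51. The 8 neuron and nerve markers lay between -0.06 and 0.24 in PH and between 0.07 and 0.28 in sham livers. The part of these cell types in the kinesin values was not tested. Old PH arrays of 24 and 38 h had a median r with their group from 0.946 to 0.980. In the other groups with more than 1 array it was 0.988 or above. The lowest were array 3 of 38 h (0.946) and array 1 of 24 h (0.965), called the arrays standing apart below. The cut was narrow, because array 1 of 38 h had a median r of 0.969 with its own group. Without the 2 arrays standing apart, 0 of 41 kinesins differed between the ages at 38 h. Then 4 mitotic members rose in old livers at that time.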

How the data were processed

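The deposited values are log2 signals per probe set, processed by the authors with RMA, per the submitters' processing notes; its version is not given in the sources used here. They were used as deposited. Of 45101 probe sets, 35890 are listed in the platform table and 34945 carry 1 gene symbol; the symbols can be old. Each of the 18193 genes was represented by its brightest probe set, by mean signal across the 35 arrays. A mean for each of 14 groups was fitted with limma 3.58.1 in R 4.3.3 (lmFit and eBayes, 21 residual and 3.29 prior degrees of freedom), and 26 contrasts were tested, with Benjamini-Hochberg adjustment over all genes at 0.05. Two-sided tests were used, and the fit was tested on simulated data. The sham groups of an age were averaged for comparison with 0 h. Named members are the mitotic ones and every other member called in any contrast; those with no call are listed. The number of arrays limits the precision. The members, classes and gene lists were chosen with earlier results of these data known. Alternatives covered the probe set rule, low signals, normalization, array weights, a replicate block, pooled shams and leaving out arrays. Figures were drawn with matplotlib 3.10.9.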

Additional observations from a re-analysis of the deposited data

Results flagged for a closer look

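For 9 kinesins, every PH array lay beyond the sham arrays in one direction in young livers and in the opposite direction in old livers at the same time. How many of all genes separate in this way was not counted, so the number is not a result about kinesins. The test of the difference between the 2 responses was run for each, and none passed an adjusted p of 0.05 in limma. At 38 h, where young sham is 1 array, the old minus young response on the log2 scale was -0.92 for Kif1c (adjusted p = 0.164), 0.55 for Kif1a (0.227), 0.50 for Kif6 (0.219), 0.47 for Kif17 (0.188), -0.46 for Kifc5b (0.394), 0.36 for Kif9 (0.343) and 0.34 for Kif12 (0.293). At 24 h it was 0.95 for Kifc3 (adjusted p = 0.464) and -0.52 for Kif26b (0.347).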

How the results depend on the processing

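The mitotic rise at 48 h kept its direction for each called member under every alternative that tested it, and 17 of 40 calls against sham, 38 of 80 against 0 h, 9 of 28 of sham against 0 h, 5 of 23 between times and 0 of 3 between ages kept their call under all of them. Counts of mitotic calls moved as follows. At 24 h the young count of 0 became 1 with only the compared arrays fitted, and the old count of 0 became 1 with pooled shams. At 38 h the young count of 5 became 3 without the dimmest genes, 0 with only the compared arrays and 10 with pooled shams; the old count of 2 became 1 with the mean of probe sets, the most variable probe set, all probe sets tested, median centring, quantile normalization or the replicate block, 5 with array weights, 0 with only the compared arrays, and 4 with pooled shams or without the 2 old PH arrays standing apart, an alternative chosen after seeing the data. At 48 h the young count of 11 became 7 without the dimmest genes, which removes dim members by construction.

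Counts for the other 28 kinesins were more variable. In young livers, 0 at 24 h became 3 with array weights or pooled shams and 1 with only the compared arrays or without the arrays standing apart; 1 at 38 h became 2 with the mean or most variable probe set, 0 with centring or only the compared arrays and 6 with pooled shams; 5 at 48 h became 3 with the most variable probe set and 10 with array weights. In old livers, 2 at 24 h became 4 with the mean or most variable probe set, 0 with only the compared arrays and 7 with pooled shams; 2 at 38 h became 1 with the most variable probe set, all probe sets, quantile normalization, array weights or the replicate block and 0 with only the compared arrays; 2 at 48 h became 5 with quantile normalization, 12 with array weights, 8 with only the compared arrays and 4 with pooled shams or without the arrays standing apart. Between ages, 1 call at 24 h became 2 with the most variable probe set or without the arrays standing apart, 5 with array weights and 0 with only the compared arrays; 2 at 38 h became 1 without the dimmest genes and 0 with array weights, only the compared arrays or without the arrays standing apart. The cause of these shifts was not tested.

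Leaving out 1 array at a time gave mitotic counts of 0 to 0, 3 to 7 and 8 to 11 in young and 0 to 0, 0 to 4 and 9 to 10 in old livers at 24, 38 and 48 h. The other kinesins gave 0 to 1, 0 to 1 and 0 to 4 in young and 0 to 6, 0 to 5 and 0 to 1 in old livers, and the age comparisons 0 to 5, 0 to 5 and 0 to 0. The single young sham array of 38 h could not be left out. Directions reversed with the most variable probe set for Kif6 (0.048, young 48 h) and Kif1b (0.0806, old 38 h) against sham, and against 0 h for Kif13a (0.39, 0.28 and 0.14 in young livers, 0.61 in old at 48 h), Kif3b (0.21 and 0.16, young 38 and 48 h) and Kif1b (0.0577, old 24 h); the mean of probe sets gave 0.10 for Kif13a in old livers at 48 h. Deviations of same-numbered PH and 0 h arrays from their group means had a median correlation of 0.02 over 84 pairs. For differently numbered arrays it was -0.01 over 168 pairs. This check left out the sham arrays and cannot exclude pairing in some of the groups.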
